A study of Mus musculus with 44 samples.

Results

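The activating and nuclear receptor arm of the circadian clock was followed in lymph node dendritic cells (DCs) through 6 genes, *Arntl*, *Clock*, *Npas2*, *Nr1d1*, *Nr1d2* and *Rora*, picked by symbol from the 14699 genes of the expression table. All 6 were among the 11963 genes tested, those with at least 1 CPM (the deposited unit, reads on a gene scaled by library size) in at least 5 of the 44 libraries. RNA-seq had been performed on CD45+CD11c+MHCIIhigh cells sorted from draining inguinal lymph nodes 24 h after a subcutaneous injection at ZT3, ZT9, ZT15 or ZT21, where zeitgeber time (ZT) counts the hours after lights on in a cycle of 12 h of light and 12 h of darkness. The question was how the cells differ with the time of day, with the tumour and with the clock gene *Arntl* (also called *Bmal1*), and each library came from 1 female mouse of 8 to 12 weeks. WT mice received B16-F10-OVA melanoma cells (5 per timepoint, 20 libraries), KO mice received the same cells (3 per timepoint, 12 libraries), and PBS mice, labelled as WT in genotype, received PBS in their place (3 per timepoint, 12 libraries). KO mice are homozygous for a floxed *Bmal1* and carry 1 copy of a Clec9a-cre, which drives recombination in the conventional DC lineage and not in every cell that can fall in the sorting gate. Whether the WT mice carried the floxed allele is not given in the sources used here.

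The clock runs as a loop. BMAL1, the product of *Arntl*, pairs with CLOCK or with its relative NPAS2 and activates genes with E-box elements, among them the PER and CRY repressors and the nuclear receptors REV-ERBα (*Nr1d1*) and REV-ERBβ (*Nr1d2*). The REV-ERB proteins recruit corepressors to RORE elements, where RORα (*Rora*) activates, and *Arntl* is the best known gene that this arm drives in antiphase to *Nr1d1*. Beside the clock, *Rora* is needed for the development of innate lymphoid cells.

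The elements of the loop can be looked for in the promoters, and windows of the 3 genes that differed between groups when averaged over time are shown for this reason. Windows of 300 bases around annotated RefSeq start sites (GRCm38.p6) were available for all 6 genes, 9 windows in all (3 of *Clock*, 2 of *Arntl* and 1 of each other gene). Of the 2 overlapping *Arntl* windows the one with a match is shown, and the other (chr7:113207215-113207514) held none of the motifs. In the sequences, capitals mark matches to AGGTCA, the core that REV-ERB and ROR proteins bind, or to the longer RORE. *Arntl* (chr7:113207261-113207560, plus strand), *Nr1d1* (chr11:98775328-98775627, minus strand) and *Rora* (chr9:68653536-68653835, plus strand) read as follows.
Arntl: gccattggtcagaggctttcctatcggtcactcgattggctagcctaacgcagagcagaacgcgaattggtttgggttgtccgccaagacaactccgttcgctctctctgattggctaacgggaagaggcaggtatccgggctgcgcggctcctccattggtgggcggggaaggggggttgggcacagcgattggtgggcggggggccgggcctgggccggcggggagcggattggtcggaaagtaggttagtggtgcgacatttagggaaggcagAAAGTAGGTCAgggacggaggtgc
Nr1d1: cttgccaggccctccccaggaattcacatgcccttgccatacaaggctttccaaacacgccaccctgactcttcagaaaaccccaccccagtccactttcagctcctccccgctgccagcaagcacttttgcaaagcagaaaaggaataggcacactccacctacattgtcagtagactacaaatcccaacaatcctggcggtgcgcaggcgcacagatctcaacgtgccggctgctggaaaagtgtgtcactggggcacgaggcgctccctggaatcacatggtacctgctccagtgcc
Rora: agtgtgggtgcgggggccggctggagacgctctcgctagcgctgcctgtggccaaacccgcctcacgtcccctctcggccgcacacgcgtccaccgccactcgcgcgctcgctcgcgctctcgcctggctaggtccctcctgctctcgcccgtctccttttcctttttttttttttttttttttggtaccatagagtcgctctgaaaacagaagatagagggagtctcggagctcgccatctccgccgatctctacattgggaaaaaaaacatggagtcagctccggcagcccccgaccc

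The longer RORE was found on either strand in 1 of the 9 windows, the *Arntl* window shown, where it began 26 bases after the start site, and in 0.384% of 32851 mouse windows of the same length. AGGTCA was found in 3 of the 9 windows (1 each of *Arntl*, *Clock* and *Nr1d2*) and in 16.3% of all windows. In the *Arntl* window it lies within the RORE. The E-box CACGTG was in none of the 9 windows and in 7.15% of all windows, and its looser form CANNTG, which includes CACGTG, was in 3 of the 9 (1 each of *Npas2*, *Clock* and *Nr1d1*) and in 72.3% of all. A match describes letters in a window and is not a measured binding site.

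The libraries held 20088012 to 28962671 reads on genes in WT mice, 29406729 to 55799163 in KO mice and 28003328 to 49590055 in PBS mice, so that most WT libraries were shallower than the others and depth cannot be told apart from group. The numbers of reads behind the 6 genes are whole within 0.05 reads in all 44 libraries. All 7 markers of conventional DCs and all 7 of migratory DCs had a median of at least 1 CPM in each group. Markers of other cells, lymphocytes among them, were also found and differed between groups, although the CD45+CD11c+MHCIIhigh gate was set for DCs. How they came to be in the sorted material was not tested. The 9 T cell markers in the table summed to 553 to 872 CPM in WT, 654 to 1226 CPM in KO and 679 to 1372 CPM in PBS libraries, with *Trac* not listed. The 5 NK cell markers summed to 15.9 to 54.1, 37.1 to 153 and 77.6 to 581 CPM, and the 5 macrophage markers to 36.7 to 113, 66.9 to 323 and 110.1 to 195 CPM. The 3 innate lymphoid markers (*Gata3*, *Il1rl1* and *Areg*) summed to 4.72 to 16.5, 9.25 to 42.8 and 26.6 to 74.6 CPM, with a median of *Il1rl1* under 0.1 CPM in WT libraries. The 3 Langerhans cell markers summed to 50.5 to 87.3 CPM in WT, 77.0 to 137 CPM in KO and 63.2 to 95.9 CPM in PBS libraries. Of the DC subsets, the mean sum of cDC2 markers was 1.36 times the WT mean in KO and 1.41 times in PBS libraries, and that of cDC1 markers 1.01 and 1.32 times. The part of these cells in the differences below was not tested. In such bulk samples, fewer cells of a type and less RNA per cell cannot be told apart.

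Per length of exon, *Nr1d2* was highest, *Arntl* next and *Npas2* lowest in each group. In WT libraries the mean level was 5.35 CPM per kb for *Nr1d2*, 1.97 for *Arntl*, 0.987 for *Clock*, 0.862 for *Rora*, 0.721 for *Nr1d1* and 0.0652 for *Npas2*. In PBS libraries *Rora* (2.69 CPM per kb) and *Nr1d1* (2.51 CPM per kb) stood close to *Arntl* (2.89 CPM per kb) and above *Clock* (1.22 CPM per kb). *Npas2* was close to the limit of detection, with at least 1 CPM in 6 of the 44 libraries, no read in 4 and a median of 5.5 reads per library, against medians of 102 reads for *Nr1d1* and 474 to 880 reads for the other 4 genes.

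**Figure D1:**
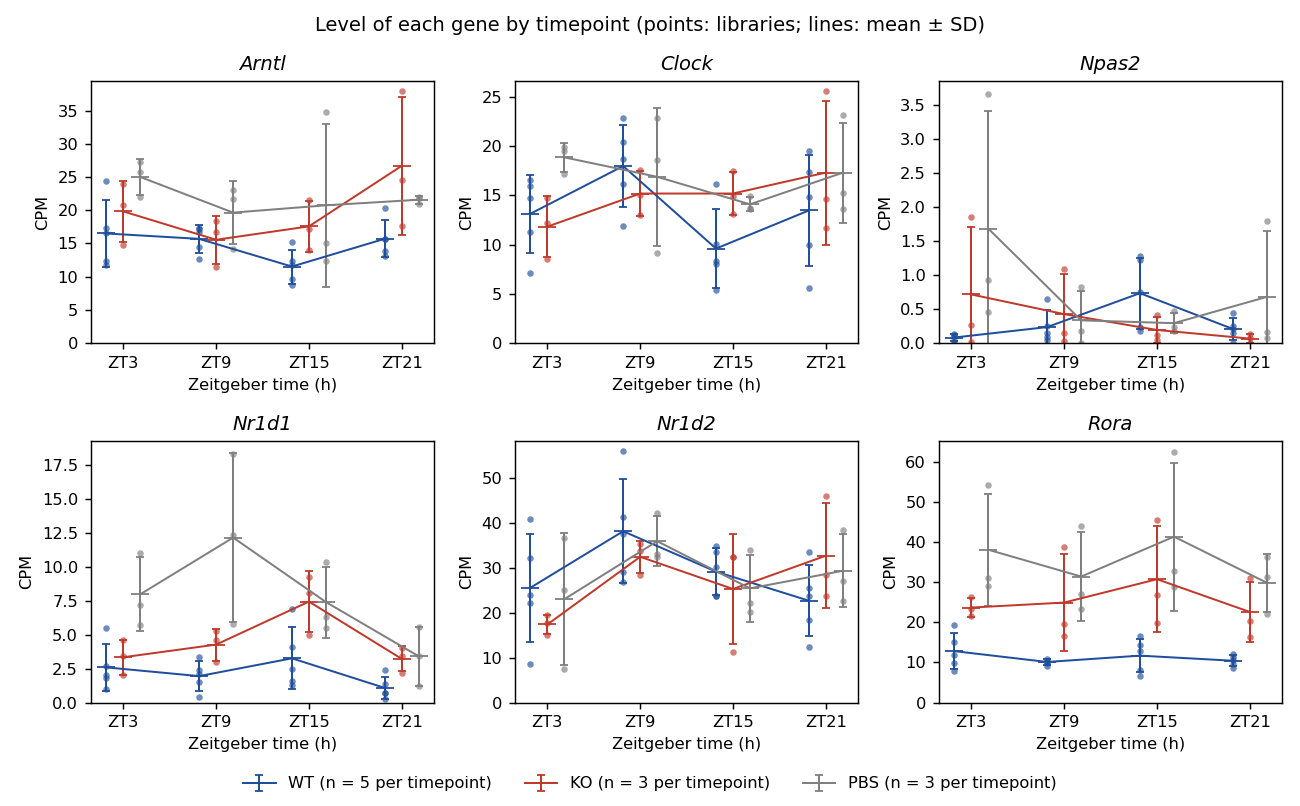
Level of the 6 genes in CPM (vertical axes, linear from 0) against zeitgeber time in hours. Points are libraries, lines join the means of WT (blue), KO (red) and PBS (grey) libraries, and bars are SDs; *Rora* lies lower in the 20 WT libraries (6.66 to 19.4 CPM) than in the 12 PBS libraries (22.0 to 62.5 CPM) at every timepoint.

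The gene targeted in the KO mice was examined first. *Arntl* (GENCODE chr7:113207465-113314126, plus strand) was not lower in the libraries labelled KO than in WT libraries. In WT libraries it stood at 11.8, 12.4, 16.6, 17.3 and 24.4 CPM at ZT3, at 12.7, 14.4, 16.8, 17.2 and 17.3 CPM at ZT9, at 8.67, 9.60, 11.8, 12.3 and 15.2 CPM at ZT15 and at 13, 13.9, 15.6, 15.6 and 20.3 CPM at ZT21. In the libraries labelled KO it stood at 14.8, 20.8 and 23.9 CPM at ZT3, at 11.5, 16.8 and 18.4 CPM at ZT9, at 13.9, 17.2 and 21.6 CPM at ZT15 and at 17.6, 24.5 and 38.0 CPM at ZT21. All 12 lie above the lowest WT library, and 2 lie above the highest. Averaged over time, the difference was 0.38 on the log2 scale (s.e. 0.12, 95% interval 0.14 to 0.63, limma adjusted p = 0.0153), a 1.30-fold higher level in the libraries labelled KO. After median-of-ratios scaling, which removes a shift common to most genes, it was 0.29 (limma adjusted p = 0.0560). These are totals over the gene and do not resolve the floxed exon, so they do not test the recombination, and the group is named by its label.

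In PBS libraries *Arntl* stood at 22.0, 25.7 and 27.3 CPM at ZT3, at 14.2, 21.7 and 23.0 CPM at ZT9, at 12.3, 15.1 and 34.8 CPM at ZT15 and at 20.9, 21.8 and 22.0 CPM at ZT21. The 4 lowest WT libraries were below every PBS library and the rest overlapped with them. WT libraries were lower by 0.52 when averaged over time (WT minus PBS −0.52, s.e. 0.13, limma adjusted p = 0.00161). At single timepoints *Arntl* did not pass adjustment in either comparison, the nearest being KO minus WT at ZT21 (0.69, s.e. 0.24, limma adjusted p = 0.0526) and WT minus PBS at ZT15 (−0.70, s.e. 0.25, limma adjusted p = 0.0530). The former passed in 4 of 9 other settings and in 7 of 32 omissions of 1 library, and was 0.41 (limma adjusted p = 0.367) without KO ZT21 replicate 1 and 0.95 (limma adjusted p = 0.0168) without KO ZT21 replicate 3. The latter passed in 2 of 9 other settings and in 6 of 32 omissions, and was −0.26 (limma adjusted p = 0.559) without PBS ZT15 replicate 2. That library, with 34.8 CPM of *Arntl*, had the highest sums of T cell (1372 CPM), NK cell (581 CPM) and innate lymphoid markers (74.6 CPM) of the 12 PBS libraries. Its migratory DC sum (14885 CPM) was the lowest of the 44 libraries. The part of these cells in the difference was not tested. KO ZT21 replicate 1, with 38.0 CPM of *Arntl*, had the highest Langerhans cell (137 CPM) and granulocyte marker sums (22.0 CPM) of the 44 libraries. The part of those cells was not tested either.

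The partners of BMAL1 did not pass adjustment in either comparison when averaged over time. *Clock* (chr5:76209868-76304792, minus strand) ranged from 5.39 to 22.8 CPM in WT (median 14.8), from 8.58 to 25.6 CPM in KO (median 14.7) and from 9.18 to 23.1 CPM in PBS libraries (median 16.2), and the 3 groups overlapped over most of these ranges. KO minus WT was 0.19 (95% interval −0.16 to 0.55, limma adjusted p = 0.409) and WT minus PBS −0.37 (95% interval −0.72 to −0.01, limma adjusted p = 0.10). The latter passed without PBS ZT9 replicate 1 (−0.46, limma adjusted p = 0.0351).

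*Npas2* (chr1:39193731-39363236, plus strand), which can stand in for CLOCK, ranged from 0 to 1.27 CPM in WT, from 0 to 1.85 CPM in KO and from 0 to 3.65 CPM in PBS libraries. At ZT3 the 5 WT libraries held 0, 1, 3, 3 and 3 reads and the 3 PBS libraries 17, 42 and 159 reads. WT libraries lay below all PBS libraries at ZT3, as for 13.4% of all genes, and the difference was −1.63 (s.e. 0.43, limma adjusted p = 0.0136) against a background of 10.5% of all genes called at that timepoint. Without the highest library, PBS ZT3 replicate 3, it was −1.02 (limma adjusted p = 0.191), so the call rests on 1 library with 3.65 CPM. Averaged over time *Npas2* did not pass in either comparison (KO minus WT −0.02, 95% interval −0.42 to 0.38; WT minus PBS −0.42, 95% interval −0.86 to 0.02).

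*Nr1d1*, which encodes REV-ERBα (chr11:98767932-98775333, minus strand), had a mean over all timepoints of 2.22 CPM in WT, 4.56 CPM in KO and 7.73 CPM in PBS libraries. In WT libraries it stood at 0.980, 1.82, 2.00, 2.7 and 5.46 CPM at ZT3, at 0.426, 1.51, 2.09, 2.36 and 3.34 CPM at ZT9, at 1.27, 1.59, 2.49, 4.09 and 6.86 CPM at ZT15 and at 0.241, 0.693, 0.695, 1.37 and 2.39 CPM at ZT21. In the libraries labelled KO it stood at 2.01, 3.41 and 4.59 CPM at ZT3, at 2.96, 4.60 and 5.24 CPM at ZT9, at 4.95, 8.07 and 9.28 CPM at ZT15 and at 2.21, 3.42 and 4.02 CPM at ZT21. In PBS libraries it stood at 5.71, 7.20 and 11 CPM at ZT3, at 5.81, 12.4 and 18.3 CPM at ZT9, at 5.49, 6.33 and 10.4 CPM at ZT15 and at 1.21, 3.46 and 5.54 CPM at ZT21. The 3 PBS libraries lay above all 5 WT libraries at ZT3, as for 13.4% of all genes, and at ZT9, as for 13.3%, and the groups overlapped at ZT15 and ZT21.

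Averaged over time, *Nr1d1* was higher in the libraries labelled KO than in WT libraries by 1.02 (s.e. 0.24, 95% interval 0.53 to 1.51, limma adjusted p = 0.00169), a 2.03-fold difference on the log2(CPM + 0.5) scale. It did not pass at a single timepoint, with differences of 0.41 at ZT3, 1.08 at ZT9, 1.24 at ZT15 and 1.36 at ZT21 (limma adjusted p of 0.697, 0.170, 0.0766 and 0.0550). WT minus PBS was −1.61 (s.e. 0.26, 95% interval −2.15 to −1.08, limma adjusted p = 1.85e-05), and at single timepoints it passed at ZT9 (−2.38, s.e. 0.52, limma adjusted p = 0.00205). At ZT3 it was −1.57 (limma adjusted p = 0.0545), and it passed there in 4 of 8 other settings and in 6 of 32 omissions of 1 library, while ZT15 (−1.22, limma adjusted p = 0.106) and ZT21 (−1.28, limma adjusted p = 0.134) also missed the threshold. Exons of *Nr1d1* share 263 bases with those of *Thra* on the opposite strand, 8.55% of its exon length. The library kit does not mark the strand, so reads from the shared stretch cannot be told apart. *Thra* itself had means of 1.67 CPM in WT, 1.43 CPM in KO and 2.30 CPM in PBS libraries.

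*Nr1d2*, which encodes REV-ERBβ (chr14:18204054-18239127, minus strand), differed from its paralog in that no difference between groups passed. It ranged from 8.66 to 56.0 CPM in WT (median 28.1), from 11.2 to 46.0 CPM in KO (median 28.5) and from 7.43 to 42.4 CPM in PBS libraries (median 29.8). KO minus WT was −0.09 (95% interval −0.48 to 0.29) and WT minus PBS 0.03 (95% interval −0.40 to 0.45), intervals that leave out the values of *Nr1d1* in the same comparisons. Whether the 2 paralogs differ in their response was not tested as a contrast of its own.

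*Rora* (chr9:68653786-69388246, plus strand) showed the clearest separation of groups. In WT libraries it stood at 7.91, 9.95, 11.7, 15.1 and 19.4 CPM at ZT3, at 9.19, 9.80, 10.1, 10.5 and 11 CPM at ZT9, at 6.66, 8.09, 12.9, 14.2 and 16.6 CPM at ZT15 and at 8.53, 9.59, 10.5, 11.4 and 12.1 CPM at ZT21. In the libraries labelled KO it stood at 21.6, 23.2 and 26.2 CPM at ZT3, at 16.5, 19.6 and 38.7 CPM at ZT9, at 19.9, 26.7 and 45.6 CPM at ZT15 and at 16.4, 20.3 and 31.0 CPM at ZT21. In PBS libraries it stood at 29.1, 31.0 and 54.2 CPM at ZT3, at 23.2, 27.0 and 44 CPM at ZT9, at 28.8, 32.8 and 62.5 CPM at ZT15 and at 22.0, 31.3 and 36.2 CPM at ZT21. All 20 WT libraries lay below all 12 PBS libraries, a separation found for 1.73% of the genes tested in that direction. Of the 12 libraries labelled KO, 10 lay above the highest WT library, and at each timepoint the 3 KO libraries lay above the 5 WT libraries of that timepoint with no overlap. That separation was found for 8.83% of all genes at ZT3, 9.21% at ZT9, 18.9% at ZT15 and 13.6% at ZT21.

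Averaged over time, *Rora* was higher in the libraries labelled KO than in WT libraries by 1.12 (s.e. 0.15, 95% interval 0.81 to 1.43, limma adjusted p = 2.01e-06), 2.17-fold. WT minus PBS was −1.58 (s.e. 0.15, 95% interval −1.88 to −1.27, limma adjusted p = 2.48e-09). WT minus PBS passed at all 4 timepoints, with differences between −1.46 (ZT21) and −1.77 (ZT15). KO minus WT passed at ZT9 (1.16, limma adjusted p = 0.0136), ZT15 (1.35, limma adjusted p = 0.00428) and ZT21 (1.04, limma adjusted p = 0.0208), and missed the threshold at ZT3 (0.92, limma adjusted p = 0.0719). Each of these 3 calls rested on 1 library: without KO ZT9 replicate 3 the difference at ZT9 was 0.80 (limma adjusted p = 0.135), without KO ZT15 replicate 1 that at ZT15 was 1.03 (limma adjusted p = 0.0534) and without KO ZT21 replicate 3 that at ZT21 was 0.79 (limma adjusted p = 0.108). These 3 libraries had the highest sums of T cell (764, 1101 and 1226 CPM), NK cell (81.2, 153 and 143 CPM) and innate lymphoid markers (28.8, 36.2 and 42.8 CPM) among the KO libraries of their timepoint. KO ZT9 replicate 3 also had the highest conventional DC (22373 CPM), migratory DC (23722 CPM), cDC2 (218 CPM) and B cell sums (62.9 CPM) of the KO libraries at ZT9. The part of any of these cells in the calls was not tested.

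In all, 3 of the 6 genes passed in KO minus WT averaged over time (*Arntl*, *Nr1d1* and *Rora*, all higher in the libraries labelled KO), where 33.7% of all genes tested passed and 23.5% passed as higher (2813 genes higher and 1218 lower; 1748 and 1753 after median-of-ratios scaling). The same 3 symbols passed in WT minus PBS averaged over time, all lower in WT libraries, where 37.9% of all genes passed and 24.6% passed as lower (1589 genes higher and 2940 lower; 2079 and 2430 after that scaling). The 2 comparisons share the 20 WT libraries, so their values are not independent of each other. The median difference of the 6 genes was 0.29 in KO minus WT and −0.47 in WT minus PBS, beside medians of 0.10 and −0.04 over all genes. At single timepoints KO minus WT called 0 of the 6 at ZT3 (5.2% of all genes), 1 at ZT9 (8.94%), 1 at ZT15 (14.8%) and 1 at ZT21 (14.2%), and WT minus PBS called 2 at ZT3 (10.5%), 2 at ZT9 (16.3%), 1 at ZT15 (17.6%) and 1 at ZT21 (9.21%). The median over all genes in KO minus WT was 0.25 at ZT15 and fell to 0.04 after median-of-ratios scaling, under which *Rora* at ZT15 was 1.14 (limma adjusted p = 0.0131).

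**Figure D2:**
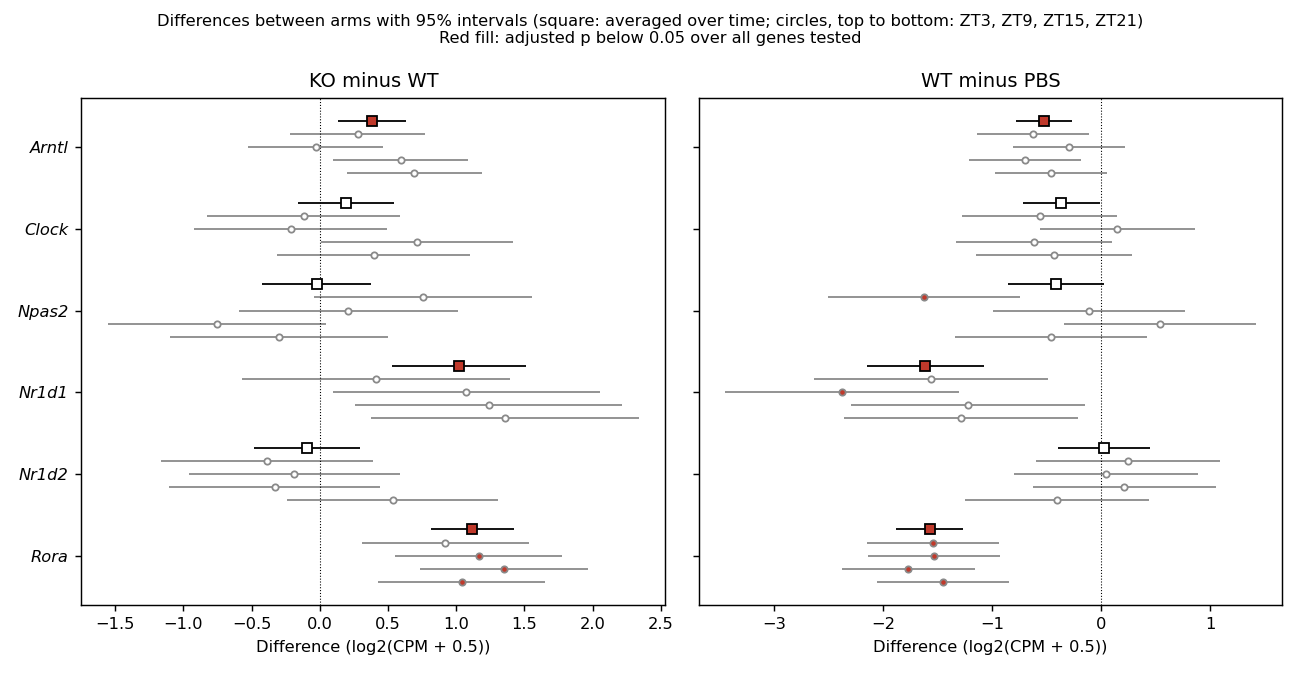
Differences between groups on the log2(CPM + 0.5) scale (horizontal axes) for the 6 genes, KO minus WT on the left and WT minus PBS on the right. Squares are averages over the 4 timepoints, circles are ZT3, ZT9, ZT15 and ZT21 from top to bottom, lines are 95% intervals and red marks an adjusted p below 0.05; *Rora*, *Nr1d1* and *Arntl* lie above 0 in the left panel and below 0 in the right panel when averaged over time.

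The levels of *Rora* were set beside those of the lymphocyte markers, a comparison chosen after the values were seen. The mean of *Rora* was 2.26 times the WT mean in the libraries labelled KO and 3.12 times in PBS libraries, and that of *Nr1d1* 2.06 and 3.49 times. The summed T cell markers were 1.21 and 1.31 times, the NK cell markers 2.73 and 6.12 times and the innate lymphoid markers 2.34 and 3.83 times the WT mean. The means of some other sums also lay above that of WT in both groups, the macrophage markers 1.87 and 2.28 times, the Langerhans cell markers 1.68 and 1.18 times and the B cell markers 1.31 and 1.32 times. The mean sum of conventional DC markers was 1.04 and 1.16 times the WT mean. That of migratory DC markers lay below it, at 0.991 times in KO and 0.888 times in PBS libraries. Relations with these sums were not computed. Within groups, 18 relations of *Rora* or *Nr1d1* with the 3 sums were computed on the log2 scale. They pooled the 4 timepoints of a group, so that differences between timepoints enter them beside the variation between mice. *Rora* rose with the innate lymphoid sum within the PBS libraries (r = 0.74, two-sided permutation test, p = 0.00496, adjusted p = 0.0298; rho = 0.57, permutation test, adjusted p = 0.182, n = 12), where r was 0.36 without the 2 libraries farthest from the median, so that the relation rests on those. Within the KO libraries it did not pass adjustment (r = 0.61, permutation test, p = 0.0339, adjusted p = 0.102; rho = 0.64, permutation test, adjusted p = 0.179; r = 0.64 without 2 libraries, n = 12), nor within the 20 WT libraries (r = 0.10, permutation test, adjusted p = 0.728; rho = 0.21, permutation test, adjusted p = 0.562).

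With the NK cell sum, *Rora* passed within KO libraries (r = 0.78, permutation test, p = 0.00326, adjusted p = 0.0293; rho = 0.77, permutation test, adjusted p = 0.0900; r = 0.61 without 2 libraries). It missed the threshold within PBS libraries (r = 0.70, permutation test, p = 0.0114, adjusted p = 0.0513; rho = 0.57, permutation test, adjusted p = 0.182; r = 0.29 without 2 libraries) and within WT libraries (r = −0.17, permutation test, adjusted p = 0.570; rho = −0.16, permutation test, adjusted p = 0.620). With the T cell sum it passed within PBS libraries (r = 0.80, permutation test, p = 0.00138, adjusted p = 0.0248; rho = 0.64, permutation test, adjusted p = 0.179; r = 0.50 without 2 libraries) and not within KO (r = 0.53, permutation test, adjusted p = 0.198; rho = 0.50, permutation test, adjusted p = 0.245) or WT libraries (r = 0.20, permutation test, adjusted p = 0.563; rho = 0.22, permutation test, adjusted p = 0.562). None of the 9 relations of *Nr1d1* passed adjustment, the nearest being that with the T cell sum within PBS libraries (r = 0.66, permutation test, p = 0.0252, adjusted p = 0.0908; rho = 0.59, permutation test, adjusted p = 0.182; r = 0.50 without 2 libraries).

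**Figure D3:**
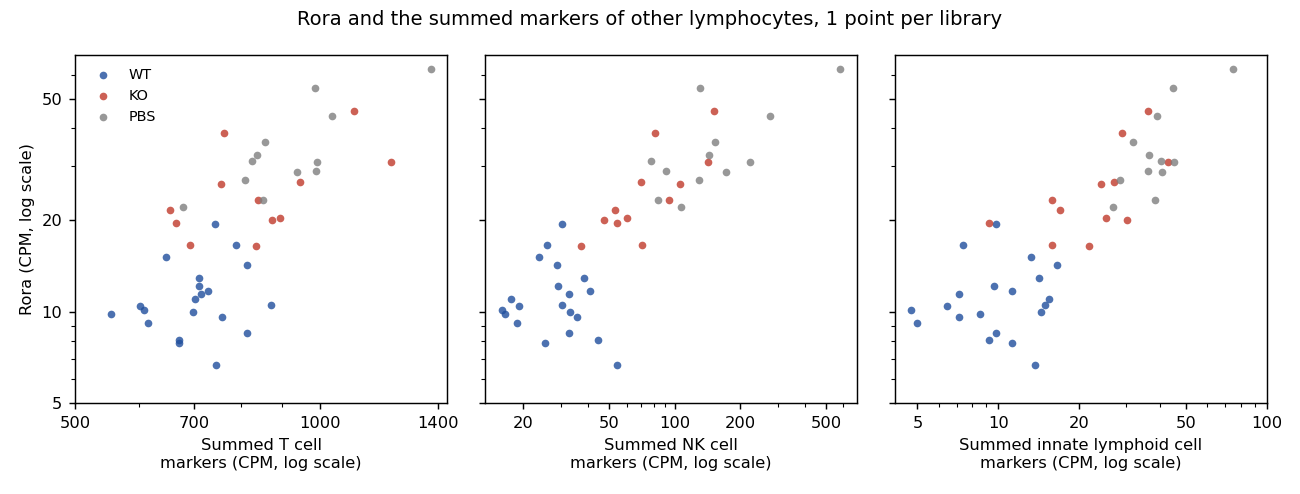
*Rora* in CPM (vertical axes, log scale) against the summed markers of T cells, NK cells and innate lymphoid cells in CPM (horizontal axes, log scale), 1 point per library, with WT in blue, KO in red and PBS in grey. In the NK cell panel WT libraries (15.9 to 54.1 CPM) and PBS libraries (77.6 to 581 CPM) do not overlap on the horizontal axis, and in the T cell panel they do (553 to 872 and 679 to 1372 CPM).

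Across the day, none of the 6 genes passed adjustment in a 24 h cosine fit in any group, where 3 of 11963 genes (0.0251%) passed in WT libraries and 0 in the libraries labelled KO and in PBS libraries. At an unadjusted p below 0.05, 1 of the 6 passed in each group, beside 9.2% of all genes in WT, 10.5% in KO and 7.38% in PBS libraries. In WT libraries it was *Npas2* (amplitude 0.49 on the log2 scale, peak at ZT14.9, n = 20, limma p = 0.00560, adjusted p = 0.333). Its 5 ZT15 libraries held 4, 7, 17, 26 and 29 reads and its 5 ZT3 libraries at most 3. The NK cell markers were also highest at ZT15: their mean sum in WT libraries was 38.2 CPM at ZT15 and 17.6 to 31.9 CPM at the other timepoints. At ZT15 it was 38.0, 44.5 and 54.1 CPM in the 3 libraries with 17, 26 and 29 reads of *Npas2*, and 25.7 and 28.6 CPM in those with 4 and 7. The mean sums of macrophage (94.7 against 51.4 to 72.2 CPM) and cDC2 markers (223 against 174 to 202 CPM) were likewise highest at ZT15 in WT libraries. So were those of conventional DC and innate lymphoid markers. The 3 genes most like *Npas2* within WT libraries were *Cxcl9* (r = 0.76), *Enoph1* (r = 0.75) and *Klre1* (r = 0.75), a receptor gene of NK cells. The part of NK cells or of the others was not tested.

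In the libraries labelled KO and in PBS libraries the gene was *Nr1d1*. Its fitted peak lay at ZT13.8 in KO (amplitude 0.56, s.e. 0.18, n = 12, limma p = 0.0276, adjusted p = 0.426) and at ZT8.8 in PBS libraries (amplitude 0.87, s.e. 0.25, n = 12, limma p = 0.0166, adjusted p = 0.663). In WT libraries it had an amplitude of 0.34 (s.e. 0.26, n = 20, limma p = 0.422). The unadjusted p of *Nr1d1* rose above 0.05 in 5 of 21 alternatives in KO and in 2 of 21 in PBS libraries. In the libraries labelled KO the macrophage markers were also highest at ZT15, with a mean sum of 216 CPM against 80.5 to 109 CPM at the other timepoints and no overlap. KO ZT15 replicate 2 had the highest macrophage (323 CPM), cDC2 (578 CPM), B cell (119 CPM) and melanoma marker sums (10.04 CPM) of the 44 libraries, and leaving it out gave 1 of those 5 alternatives (amplitude 0.49). The part of these cells in the course of *Nr1d1* was not tested. In the PBS group, the 3 libraries at ZT9 lay above the 3 at ZT21 with no overlap, as for 6.65% of all genes, and ZT9 minus ZT21 was 1.74 (s.e. 0.51, limma adjusted p = 0.784, where 0 of 11963 genes passed and 5.32% had an unadjusted p below 0.05).

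In WT libraries *Arntl* had its fitted peak at ZT3.0 (amplitude 0.24, n = 20, limma p = 0.0691), *Nr1d1* at ZT10.3 and *Nr1d2* at ZT10.6 (amplitude 0.41, limma p = 0.0583), all in the light phase. These peaks are descriptions, since none of the fits passed, and *Nr1d1* had a lower mean at ZT9 (1.95 CPM) than at ZT3 (2.59 CPM) or ZT15 (3.26 CPM). *Nr1d2* in WT libraries stood at 27.0, 29.2, 37.6, 41.4 and 56.0 CPM at ZT9 and at 12.5, 18.3, 23.8, 25.5 and 33.5 CPM at ZT21. The 2 timepoints overlap, and ZT9 minus ZT21 was 0.76 (s.e. 0.33, limma adjusted p = 0.389; 0.226% of all genes passed and 11.5% had an unadjusted p below 0.05). In the libraries labelled KO, *Arntl* was the member with an unadjusted p below 0.05 between these timepoints (ZT9 minus ZT21 −0.72, s.e. 0.31, limma adjusted p = 0.444), where 0.00836% of all genes passed and 10.9% had an unadjusted p below 0.05, beside a median over all genes of −0.12. With 1 library left out it was −0.98 to −0.43 (−0.43 without KO ZT21 replicate 1), and its unadjusted p was 0.05 or above in 7 of 21 alternatives.

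*Rora* had the smallest fitted amplitude of the 6 in each group (0.07 in WT, 0.15 in KO and 0.05 in PBS libraries). No member passed adjustment for a course over time that differed between groups. For KO against WT 0.0502% of all genes passed that interaction, 18.3% had an unadjusted p below 0.05 and the smallest p of the 6 was that of *Npas2* (n = 32, limma p = 0.0592). For WT against PBS 0 of 11963 genes passed in limma, 11.9% had an unadjusted p below 0.05, and *Npas2* was the one member among them (n = 32, limma p = 0.0115, adjusted p = 0.267).

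**Figure D4:**
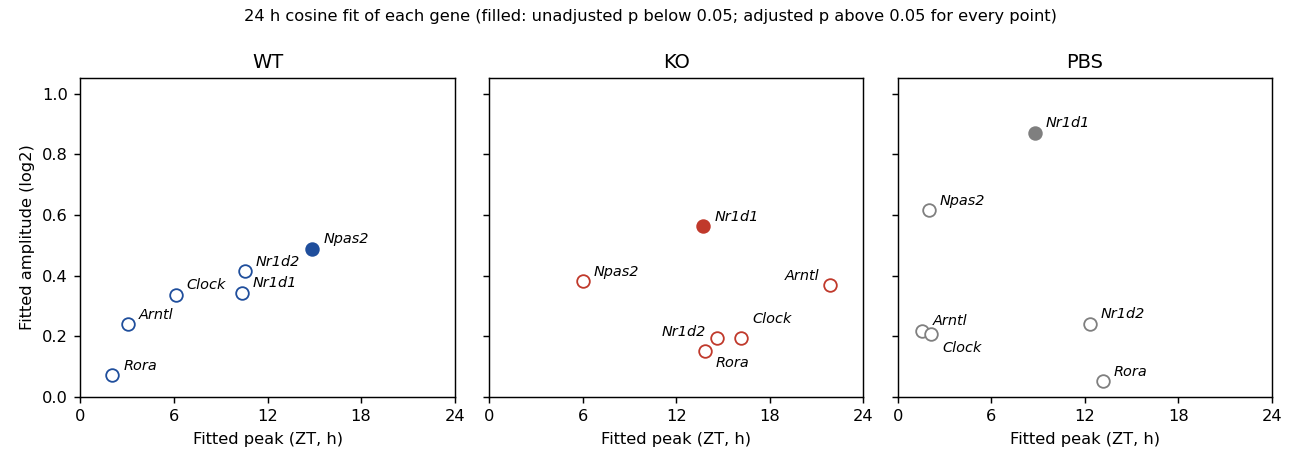
Fitted amplitude (vertical axis, log2 units) and fitted peak (horizontal axes, zeitgeber time in hours) of the 24 h cosine for the 6 genes in WT, KO and PBS libraries. Filled points have an unadjusted p below 0.05 (*Npas2* in WT, *Nr1d1* in KO and PBS) and none has an adjusted p below 0.05.

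The 6 genes showed little relation with each other between libraries of a group. Of 15 pairs in each of 3 groups (45 relations), none passed adjustment (two-sided permutation tests on log2 values, smallest adjusted p = 0.654), and r ranged from −0.54 to 0.58. At an unadjusted p below 0.05 stood *Npas2* with *Rora* in WT (r = −0.49, permutation test, p = 0.0285; rho = −0.30, permutation test, p = 0.200; r = −0.18 without the 2 libraries farthest from the median; r = −0.64 of deviations from the timepoint means, permutation test, adjusted p = 0.0981, n = 20) and *Clock* with *Nr1d2* in KO libraries (r = 0.58, permutation test, p = 0.0487; rho = 0.50, permutation test, p = 0.103; r = 0.16 without 2 libraries, n = 12). *Arntl* and *Nr1d1*, which the loop sets against each other, had r of −0.25 in WT (permutation test, p = 0.291, rho = −0.30), −0.40 in KO (permutation test, p = 0.197, rho = −0.45) and 0.10 in PBS libraries (permutation test, p = 0.755, rho = 0.22). Without the 2 libraries farthest from the median of *Arntl*, these were −0.28, −0.77 and −0.09.

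The genes most like each member over all 44 libraries differed between members. They were *Trp53i11*, *Pxdc1* and *Emb* for *Rora* (Pearson r of 0.91, 0.91 and 0.90), *Gstm1*, *Hpgds* and *Rab3il1* for *Nr1d1* (each with r = 0.76) and *Pgs1*, *Slc1a5* and *Rsrc2* for *Arntl* (0.70, 0.69 and 0.69). For *Nr1d2* they were *Herc3*, *Frs2* and *Edc4* (0.67, 0.66 and 0.66), for *Clock* *Plekha7*, *Serpinb6a* and *Vps9d1* (0.67, 0.66 and 0.64) and for *Npas2* *Akip1*, *H2-Oa* and *Ap1s1* (0.56, 0.53 and 0.53). The libraries share the difference between groups, and within the 20 WT libraries r was 0.67 for *Trp53i11*, 0.36 for *Pxdc1* and 0.35 for *Emb* with *Rora*. Of these 18 genes, 1 (*Vps9d1* for *Clock*) was again among the 3 most like its member within WT libraries.

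The rest of the loop was described with 30 other clock genes, of which 27 were tested. In KO minus WT averaged over time 3 passed as higher in the libraries labelled KO and 8 as lower, where 23.5% of all genes passed as higher and 10.2% as lower, with a median difference of −0.06 beside 0.10 over all genes. The corepressor and coactivator list held 4 of the lower ones among its 9 genes tested and none of the higher ones. After median-of-ratios scaling 3 of the 27 passed as higher and 12 as lower, 7 of them on that list, where 14.6% of all genes passed as higher and 14.7% as lower. *Crebbp*, an acetyltransferase that works with BMAL1 and CLOCK, was lower by 1.06 (KO minus WT −1.06, s.e. 0.08, limma adjusted p = 3.54e-11). *Sirt1*, a deacetylase, was at −1.01, followed by *Tbl1x* (−0.37), a subunit of the corepressor complex, and *Kmt2a* (−0.29), a histone methyltransferase. *Ncor1*, a corepressor that REV-ERB proteins recruit, had −0.09 (limma adjusted p = 0.323). It was among the genes that passed after that scaling alone (−0.18, limma adjusted p = 0.0269), with *Ep300* (−0.34), *Tbl1xr1* (−0.27) and the output gene *Tef* (−0.41).

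Among the repressors, *Cry1* (0.69) and *Bhlhe40* (0.39) were higher in the libraries labelled KO and *Per1* (−0.59) and *Per3* (−0.74) were lower. Among the outputs, *Hlf* was higher (1.47) and *Dbp* lower (−0.31), both of them transcription factors of the PAR bZIP family, and of the kinases and ligases *Gsk3b* (−0.23), which phosphorylates several clock proteins, was lower.

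In WT minus PBS averaged over time 5 of the 27 passed as higher in WT libraries and 5 as lower (11 and 5 after median-of-ratios scaling), where 13.3% of all genes passed as higher and 24.6% as lower (17.4% and 20.3% after that scaling), with a median of 0.13 beside −0.04 over all genes. The 4 corepressor and coactivator genes that passed were all higher in WT, *Sirt1* (1.45, s.e. 0.11), *Crebbp* (0.70), *Tbl1x* (0.34) and *Ep300* (0.28), as was the output gene *Tef* (0.34). Lower in WT were *Hlf* (−2.0, s.e. 0.18, limma adjusted p = 1.75e-09), *Cry1* (−0.77), *Fbxl21* (−0.67), which takes part in the turnover of CRY proteins, *Bhlhe40* (−0.39) and *Nfil3* (−0.37).

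At single timepoints, KO minus WT called 3, 5, 2 and 5 of the 27 genes (ZT3, ZT9, ZT15 and ZT21), where 5.2%, 8.94%, 14.8% and 14.2% of all genes passed. WT minus PBS called 3, 6, 5 and 5, where 10.5%, 16.3%, 17.6% and 9.21% passed. *Crebbp* passed in KO minus WT at all 4 timepoints, with differences of −1.26 to −0.96. *Sirt1* passed in KO minus WT at ZT3 (−1.86, limma adjusted p = 5.12e-04) and ZT9 (−1.40, limma adjusted p = 0.00570), and not at ZT15 (−0.77, limma adjusted p = 0.0938) or ZT21 (−0.02, limma adjusted p = 0.979). After median-of-ratios scaling it passed at ZT15 as well (−0.98, limma adjusted p = 0.0415). *Sirt1* (1.17 to 2.13) and *Hlf* (−2.48 to −1.63) passed in WT minus PBS at all 4. *Kmt2a* passed in WT minus PBS at 3 timepoints, as higher in WT at ZT9 (0.55, limma adjusted p = 0.0279) and ZT21 (0.75, limma adjusted p = 0.00482) and as lower at ZT15 (−0.51, limma adjusted p = 0.0417). In KO minus WT it passed at no single timepoint, with −0.37, −0.47, 0.21 and −0.54 at ZT3, ZT9, ZT15 and ZT21. Over time, 1 of the 27 passed the 24 h cosine in WT libraries, *Dbp* (amplitude 0.50, peak at ZT13.5, limma adjusted p = 0.0268). In the other groups *Dbp* had an amplitude of 0.63 at ZT14.4 in KO (n = 12, limma p = 1.7e-04, adjusted p = 0.232) and of 0.55 at ZT14.1 in PBS libraries (limma p = 3.0e-04, adjusted p = 0.519). The fitted peaks of *Dbp* lay within 1 h of each other in the 3 groups.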

How the data were processed

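Single reads of 50 bases were mapped by the authors with STAR on mm10, reads per gene were obtained from HTSeq 0.9.1 and scaled by library size, and 1 table of CPM was deposited by the authors; per the labels, each column is 1 sample. In each column 89.9% to 92.4% of the values are whole multiples (within 0.05 reads) of the value of 1 read, from which depth was obtained. Because not all were whole, no count model was used. Values were tested as log2(CPM + 0.5) with limma 3.58.1 (R 4.3.3), adjusted by Benjamini-Hochberg across the 11963 genes at a threshold of 0.05. In the comparisons of groups and timepoints, the limma p-values set a difference against the spread between mice. In the cosine fit, the spread left over also holds departures of the timepoint means from the cosine. The cosine had a period of 24 h. Averages weighted the 4 timepoints equally. Correlations used 100000 resamples (scipy 1.17.1), in which the libraries of a group were permuted across timepoints. With an amplitude of 1 in simulated data, the cosine called 92% of 200 changed genes at 20 libraries and 77.5% at 12. The largest fitted amplitude of the 6 genes was 0.49 in WT, 0.56 in KO and 0.87 in PBS libraries. Amplitudes below 1 were not simulated, so these shares do not tell how often courses of that size would be called. Coordinates and exon lengths are those of GENCODE M21 (GRCm38), and promoters those of RefSeq. The members, gene lists and tests were chosen with earlier results of these data known. Genes other than the 6 were named where they passed adjustment, were most like a member, overlapped one or marked other cells; *Ncor1*, *Ep300*, *Tbl1xr1* and *Tef* were named in KO minus WT for a call after scaling, seen afterwards. The study names 2 independent experiments, and the labels give none per mouse. No 2 libraries held identical values. Some genes of the lists are not reported here and were left out of every list count and sum.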

Additional observations from a re-analysis of the deposited data

How the results depend on the processing

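*Npas2* and, in WT libraries, *Nr1d1* (6 to 140 reads) rest on few reads, and neither could be tested under a filter of a mean of at least 10 CPM. Averaged over time, *Rora* and *Nr1d1* kept their calls in every alternative in which they were tested (differences of 1.03 to 1.19 and 0.86 to 1.23 in KO minus WT), and *Arntl* lost its call in KO minus WT under median-of-ratios scaling (0.29). No member passed a time course or an interaction in any alternative.

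The number of members called moved as follows. It was 3 with array weights and 0 to 2 when 1 library was left out for KO minus WT at ZT15 (0 without KO ZT15 replicate 1), against 1. At ZT21 it was 3 with array weights and 2 with a pseudocount of 1, with a mean of at least 10 CPM or with the replicate block, and 1 to 2 with 1 library left out, against 1. At ZT3 it was 1 with array weights or a mean of at least 10 CPM and 0 to 1 with 1 library left out, against 0, and at ZT9 it was 0 to 1, against 1. For WT minus PBS it was 2 at ZT15 with an intensity trend or a mean of at least 10 CPM and 1 to 2 with 1 library left out, against 1, and at ZT3 it was 1 with a mean of at least 10 CPM, 3 (*Nr1d1* added) with a pseudocount of 1, an intensity trend, array weights or all 44 libraries in 1 fit, and 1 to 3 with 1 library left out, against 2. At ZT9 it was 1 with a mean of at least 10 CPM, against 2, and ZT9 minus ZT21 in WT called 1 with array weights (*Nr1d2*), against 0. Of the 18 most like genes 1 was kept within WT libraries. Values near 0 changed sign: *Clock* in KO minus WT with array weights (−0.0086), *Npas2* in KO minus WT with a pseudocount of 1 (2.2e-04) and with 1 library left out (−0.179 to 0.0936), *Nr1d2* in KO minus WT with 1 library left out (−0.177 to 0.0312), and *Nr1d2* in WT minus PBS with 1 library left out (−0.136 to 0.142). The cause was not tested.

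The replicate numbers showed no common pairing of the mice. Libraries of the same number at different timepoints had a mean correlation of deviations of −0.0146 in WT, −9.15e-04 in KO and −0.0285 in PBS. Single pairs in WT ranged from −0.237 to 0.163. A mean over all pairs cannot show whether part of the libraries were paired or shared an experiment. With the replicate block *Nr1d2* in WT minus PBS was −2.8e-03, the count at ZT21 above rose to 2 and the other counts of members stayed as they were.

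Counts over all genes depended on the setting. For the cosine in WT (3) it was 632 with an F test over the 4 timepoints, 147 with array weights and 1 to 43 with 1 library left out, and for KO (0) it was 170 with all 44 libraries in 1 fit. The genotype interaction (6) called 1071 with array weights and 4 to 311 with 1 library left out, the interaction of WT and PBS (0) called 0 to 38 with 1 library left out, and ZT9 minus ZT21 in WT (27) called 473 with array weights, 54 with a mean of at least 10 CPM, 49 with an intensity trend, 15 with the replicate block, 12 with all 44 libraries in 1 fit and 3 (without WT ZT9 replicate 2) to 67 (without WT ZT3 replicate 3) with 1 library left out. In KO (1) it called 70 with array weights, 46 with all 44 libraries in 1 fit, 2 with a pseudocount of 0.1 or no filter, 0 with a mean of at least 10 CPM, an intensity trend or the replicate block, and 0 to 3 (without KO ZT3 replicate 1) with 1 library left out. KO minus WT at ZT9 (1070) and ZT21 (1699) called 1795 and 3675 with array weights, and at ZT15 (1768) 1112 after median-of-ratios scaling. With 1 library left out the lowest counts of KO minus WT were 324 at ZT3 (622; without KO replicate 3), 594 at ZT9 (KO replicate 2), 822 at ZT15 (KO replicate 1) and 753 at ZT21 (KO replicate 1). Those of WT minus PBS were 639 at ZT3 (1253; PBS replicate 3), 1228 at ZT9 (1947; PBS replicate 2), 811 at ZT15 (2106; PBS replicate 2) and 706 at ZT21 (1102; PBS replicate 1). The averages over time moved by less than 1.5 times. Median-of-ratios scaling also changed the split of calls, higher and lower, in KO minus WT at ZT3 (366 and 256, then 221 and 345), ZT15 (1438 and 330, then 499 and 613) and ZT21 (1079 and 620, then 645 and 858), and in WT minus PBS at ZT3 (220 and 1033, then 401 and 648) and ZT15 (529 and 1577, then 865 and 1016).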
